A study of Homo sapiens with 4 samples.

Results

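The proneural basic helix-loop-helix (bHLH) genes examined here were ASCL2, NEUROD1, NEUROD2, NEUROG1, NEUROG2 and NEUROG3, 6 of 19974 protein-coding genes on chromosomes 1 to 22 and X. They were chosen by name, and the peaks described are those whose midpoint lay inside a gene or within 50 kb of it, by RefSeq positions in GRCh38.p14. That rule gave 3 of 4997 ATOH8 peaks and 6 of 11390 TCF3 peaks. All 6 genes lay on different chromosomes, so no peak was counted for more than 1 of them.

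The peaks came from ChIP-seq, in which DNA bound by a protein is pulled down with an antibody and sequenced, in the human prostate cancer line DU145. A Flag tag served to pull down ATOH8, itself a bHLH factor of the atonal family, and a Myc tag to pull down TCF3, an E protein. Each factor had 1 immunoprecipitation library and 1 input library, 4 in all, with no untagged or mock sample named in the labels and no treatment. The sources do not say how the tagged proteins were expressed or whether the cells were 1 clone. Neither expression nor the prostate identity of the cells can be read from peak lists.

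Proneural bHLH factors are transcription factors that drive progenitor cells to become neurons, and the NEUROG and NEUROD factors do the same for hormone-producing cells of the pancreas and gut. They bind DNA as dimers with E proteins such as TCF3, TCF4 or TCF12, at a short word called the E-box (CANNTG). The pairing is opposed by ID proteins, which have the dimer domain but do not bind DNA, and the genes themselves are repressed by HES factors under Notch signalling. ASCL2 differs in its known sites of action, which are the placental trophoblast and intestinal stem cells.

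With 1 library per factor there was no replicate check, so the values below are a description of these libraries, without tests. The score is the authors' own value per peak and was read only within a list. It ran from 51 to 8846 with a median of 84 in the ATOH8 list and from 35 to 19871 with a median of 61 in the TCF3 list. The lists skip some scores, among them those between 356 and 996, between 280 and 326 and between 189 and 232 for ATOH8 and those between 280 and 887 for TCF3. Peaks in those ranges were not analysed here, so the absence of a peak from a list does not mean absence of binding. Read depth was unknown.

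TCF3 peaks lay at the 3 neurogenin genes and beside NEUROD1, and ATOH8 had its highest peak of the group inside ASCL2. A TCF3 peak lay within 50 kb of 4 of the 6 genes, against 53.7% of all protein-coding genes (10720 of 19974, Wilson 95% interval 53.0 to 54.4%). An ATOH8 peak lay within 50 kb of 3 of the 6, against 43.6% of all protein-coding genes (8706 of 19974, 42.9 to 44.3%). At this distance both counts are close to what the whole list gives, and nothing about the group follows from them. NEUROG1 was the only one of the 6 with peaks of both factors within 50 kb, as were 28.1% of protein-coding genes. None of the 6 lacked both, against 30.8% of protein-coding genes.

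**Figure D1:**
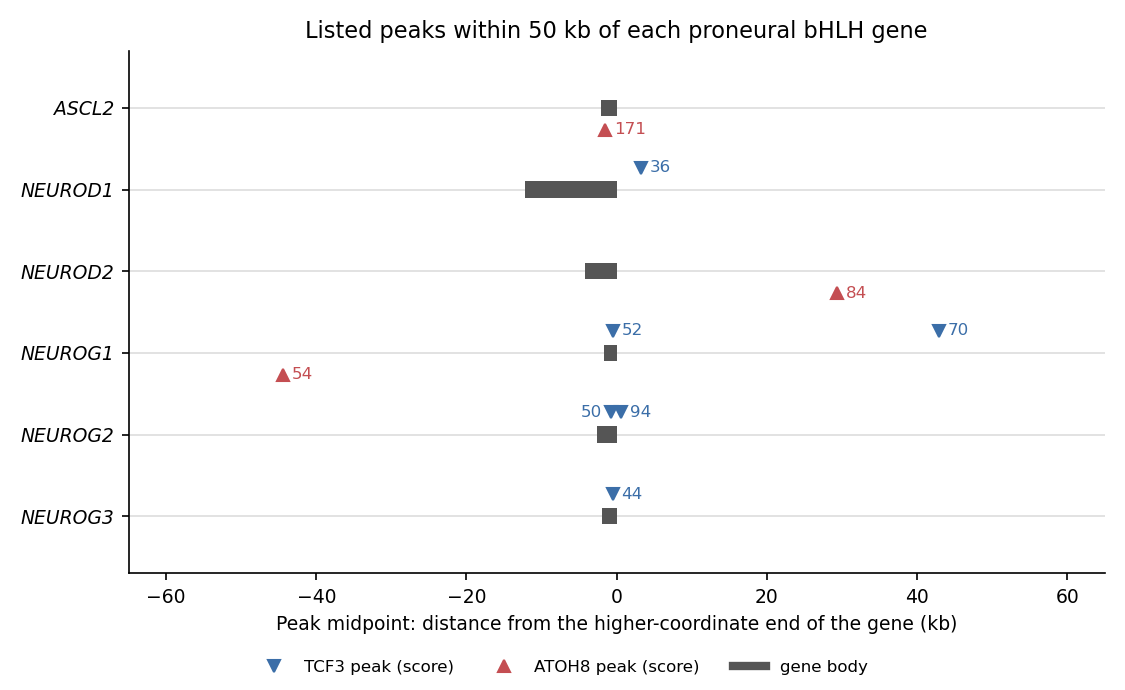
Peaks within 50 kb of each proneural gene. The x axis is the distance of the peak midpoint from the higher-coordinate end of the gene in kb, TCF3 peaks are above the gene line and ATOH8 peaks below it, and each number is the authors' score. Of the 6 TCF3 peaks, 5 lay within 5 kb of the proneural gene, and of the 3 ATOH8 peaks 1 did.

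The peaks lay at various distances from the proneural genes. Of the 6 TCF3 peaks, 3 had their midpoint inside a proneural gene and another 2 lay within 5 kb of one. Of the 3 ATOH8 peaks, that inside ASCL2 was the only one within 5 kb of a proneural gene. Within 1 kb, a TCF3 peak was listed at 3 of the 6 genes (29.3% of protein-coding genes) and an ATOH8 peak at 1 (22.2%). With a window of 5 kb the counts were 4 (32.9%) and 1 (25.1%), with 10 kb 4 (36.4%) and 1 (28.0%), and with 100 kb 5 (65.9%) and 3 (55.5%).

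**Figure D2:**
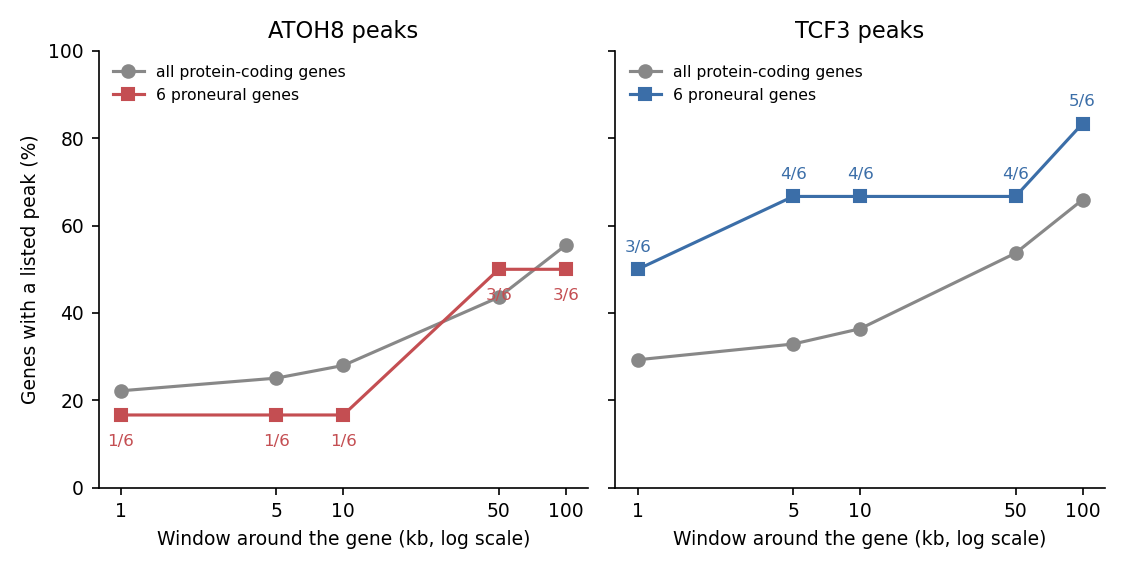
Share of genes with a listed peak by window size. The x axis is the window around the gene in kb on a log scale, the y axis the percentage of genes with at least 1 peak midpoint in it, grey circles are all 19974 protein-coding genes and coloured squares the 6 proneural genes, labelled with their count. For TCF3 the proneural count was 3 at 1 kb, 4 from 5 to 50 kb and 5 at 100 kb, and for ATOH8 it was 1 up to 10 kb and 3 at 50 and 100 kb.

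The neurogenins, encoded by NEUROG1, NEUROG2 and NEUROG3, act early, when a progenitor is committed to a neuronal or endocrine fate. NEUROG1 (chromosome 5, 135534282 to 135535964, minus strand, 1683 bp) serves sensory ganglia of the head among other sites. A TCF3 peak with score 52 extended from 135534697 to 135536369 and took in the start of the gene. It covered 1267 bp or 75.3% of the gene and reached 405 bp upstream of the start. Its score was above that of 33.2% of TCF3 peaks, with ranks 6684 to 7611 shared by 928 peaks. It was a weakly scored peak, therefore, but a wide one: its 1672 bp exceeded the width of 89.2% of the list.

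The other peaks within 50 kb of NEUROG1 were far from it. A TCF3 peak with score 70 (135578485 to 135579326) was centred 42.9 kb upstream of the gene, inside CXCL14, which encodes a chemokine, and 86 bp from an end of that gene. An ATOH8 peak with score 54 (135491432 to 135491748) was centred 42.7 kb on the other side, outside any annotated gene, with TIFAB as nearest protein-coding gene, 39239 bp away. The ATOH8 peak was among the lowest of its list, at ranks 4633 to 4747 of 4997. The next TCF3 peak, just beyond the 50 kb limit at 55.0 kb, had score 42, and it was the nearest TCF3 peak to that ATOH8 peak, with 12.0 kb between them.

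NEUROG3 (chromosome 10, 69571485 to 69573422, minus strand, 1938 bp) is the factor that commits pancreatic progenitors to the endocrine lineage. Its only peak within 50 kb resembled the peak over NEUROG1 in place and width. A TCF3 peak with score 44 ran from 69572018 to 69573729, covered 1404 bp or 72.4% of the gene and reached 307 bp upstream of the start. It was wider (1711 bp) than 89.7% of TCF3 peaks and scored above 17.8% of them, at ranks 8210 to 9364. Its midpoint also lay 84 bp from an end of LOC101929021, so position does not give the peak to NEUROG3 alone. A TCF3 peak with score 85 lay just outside the limit, at 57.0 kb. The nearest ATOH8 peak, with score 87, was centred 120 kb away.

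NEUROG2 (chromosome 4, 112513516 to 112516180, minus strand, 2665 bp), a factor of cortical and spinal neurogenesis, had TCF3 peaks on both sides of its start and none over it. The inner peak, with score 50, ran from 112514767 to 112516080 and covered 49.3% of the gene. It ended 100 bp short of the start. The outer peak, with score 94, ran from 112516522 to 112516951, and its near edge lay 342 bp upstream of the start. A gap of 442 bp separated them. The outer peak was narrow (429 bp, wider than 13.2% of the list) and had the highest TCF3 score of the group, above 76.0% of TCF3 peaks at ranks 2687 to 2732. The inner one was wide (1313 bp, wider than 80.9%) and scored above 30.9%. Both midpoints also lay inside NEUROG2-AS1, an antisense RNA gene, so the peaks cannot be given to 1 gene by position. The nearest ATOH8 peak to the gene was 282 kb away.

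**Figure D3:**
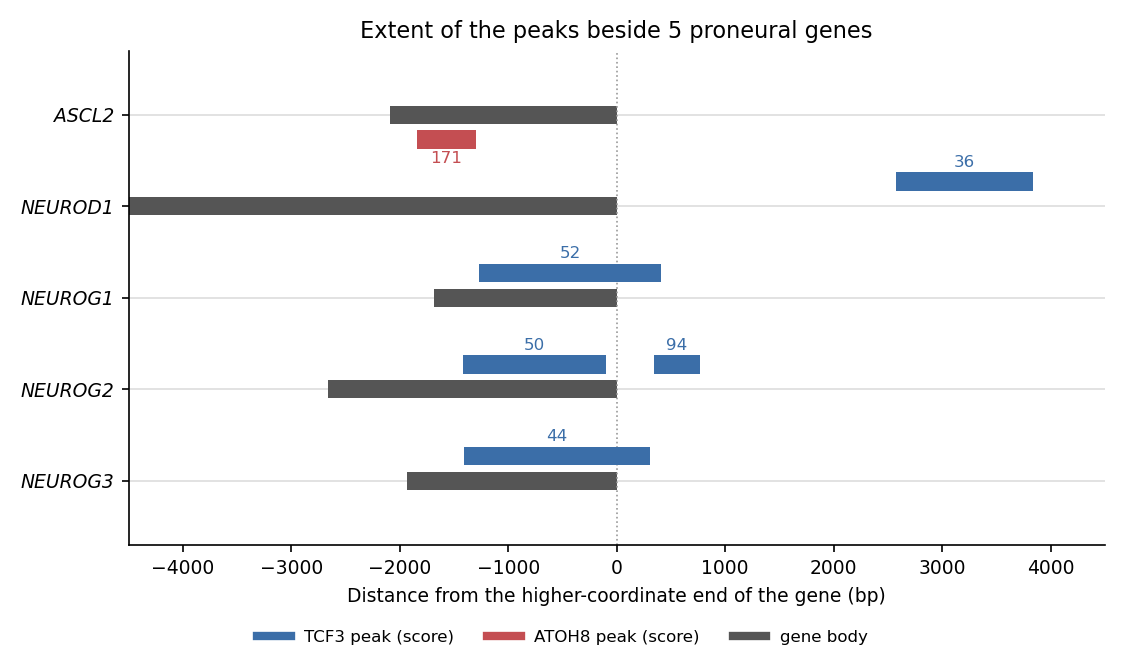
Extent of the peaks near 5 genes. The x axis is the distance from the higher-coordinate end of the gene in bp, which is the start of transcription for the 4 NEUROG and NEUROD genes shown, and bars give the gene body (grey), TCF3 peaks (blue) and ATOH8 peaks (red) with their scores; NEUROD1 extends beyond the left edge. The TCF3 peaks of NEUROG1 and NEUROG3 reached 405 and 307 bp beyond the start, and those of NEUROG2 left a gap of 442 bp around it.

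The bodies of the neurogenin genes thus carried TCF3 peaks that were wide and scored below the median of the list. Their widths were 1313 to 1711 bp and their scores 44 to 52. In the whole list 2173 peaks (19.1%) were at least 1313 bp wide. Those had a median score of 89, against 61 for all TCF3 peaks, and 21.7% of them scored 52 or less, against 41.3% of all. The limit of 1313 bp is the width of the narrowest of these 3 peaks. Widths among peaks of similar score were not compared. A single TCF3 peak covered at least 50% of the gene at NEUROG1 and NEUROG3, 2 of the 6 members, as it did at 1.11% of protein-coding genes. The share depends on gene length: it was 9.91% of the 1706 protein-coding genes no longer than NEUROG2, a limit that 4 of the 6 members met. No single ATOH8 peak covered as much of any of the 6, as was the case for all but 0.355% of protein-coding genes and all but 3.28% of those no longer than NEUROG2. The 3 midpoints lay 431, 757 and 549 bp downstream of the start for NEUROG1, NEUROG2 and NEUROG3. These peaks were taken for having their midpoint inside the gene, so the downstream side was fixed by that choice. The outer NEUROG2 peak was centred 556 bp upstream. Of 2888 TCF3 peaks centred within 1 kb of a protein-coding start, 81.8% lay downstream, and the median position of the 2888 was 284 bp downstream. The 3 peaks cannot be compared with that share.

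**Figure D4:**
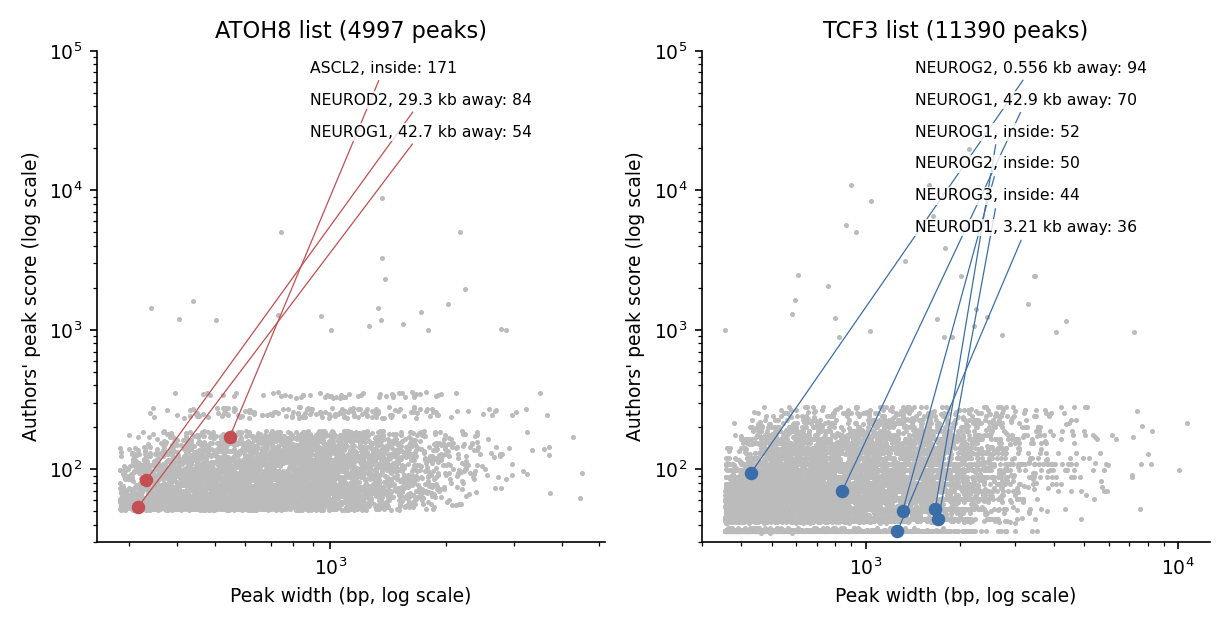
Width and score of every listed peak, with the proneural peaks in colour. The x axis is the peak width in bp and the y axis the authors' score, both on log scales, grey points are all peaks of a list, and labels give the gene, the distance of the midpoint from it and the score; empty bands are score ranges not analysed here. The 3 TCF3 peaks inside neurogenin genes lie to the right at scores of 44 to 52, and the NEUROG2 peak with score 94 lies to the left.

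The NEUROD factors follow the neurogenins in the same lineages and carry differentiation forward. NEUROD1 (chromosome 2, 181668295 to 181680517, minus strand, 12223 bp), which also maintains insulin-producing cells, had 1 TCF3 peak, from 181683091 to 181684355, centred 3206 bp upstream of its start. Its score of 36 was shared by 1542 peaks and was the second lowest in the list, above 0.0263% of peaks. At 1264 bp it was wider than 79.4% of them. The next TCF3 peak was 212 kb from the gene, and the nearest ATOH8 peak was 1357645 bp away.

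NEUROD2 (chromosome 17, 39603768 to 39607920, minus strand, 4153 bp), a factor of cortical neurons, had no TCF3 peak nearer than 201961 bp. Its only peak within 50 kb was an ATOH8 peak with score 84, from 39637087 to 39637419, centred 29.3 kb upstream. That peak lay inside STARD3, which encodes a cholesterol transport protein of late endosomes, 109 bp from an end of STARD3 and 37 bp from an end of LOC124903998. CDK12, PPP1R1B and STARD3 are the protein-coding neighbours within 50 kb, so this peak belongs to NEUROD2 by the distance rule only. It ranked 2493 to 2544 and scored above 49.1% of ATOH8 peaks.

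ASCL2 (chromosome 11, 2268498 to 2270588, 2091 bp) had the highest score of the group in either list, though scores of different lists are not on a common scale. An ATOH8 peak with score 171 ran from 2268744 to 2269291, entirely within the gene, covering 26.2% of it. Its midpoint was 519 bp from the lower-coordinate end and 1571 bp from the higher one. It ranked 402 to 422, above 91.6% of ATOH8 peaks, and its width of 547 bp exceeded 32.2% of them. Both other ATOH8 peaks of the group, with scores 84 and 54, were narrower, at 332 and 316 bp. The TCF3 list had nothing within 50 kb of ASCL2, and its nearest peak, with score 36, was centred 99910 bp away. An ATOH8 midpoint inside the gene was found at 17.4% of protein-coding genes and a TCF3 midpoint at 26.0%, against 1 and 3 of the 6. These shares cover genes of any length, and none was computed for genes as short as the 6, so the counts are not like for like.

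No proneural peak was shared between the factors, where shared means at least 1 bp in common. None of 3 ATOH8 peaks overlapped a TCF3 peak, against 28.5% of the whole ATOH8 list (Wilson 95% interval 27.3 to 29.8%), and none of 6 TCF3 peaks overlapped an ATOH8 peak, against 12.4% of the TCF3 list (11.9 to 13.1%). With 3 and 6 peaks these counts of 0 are too small to set the group apart. The distance from a proneural peak to the nearest peak of the other list was 12.0 to 231 kb for the ATOH8 peaks, and the shortest for a TCF3 peak was 42.9 kb, at NEUROG1.

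The bases just upstream of the start were read for the genes with an entry in the RefSeq promoter table (GRCh38.p14), which held NEUROD1, NEUROD2, NEUROG1, NEUROG2 and NEUROG3. ASCL2 had no entry. A TCF3 peak overlapped the 250 bases before the start at NEUROG1 and NEUROG3, 2 of 5, against 11.2% of 15812 protein-coding genes with a sequence. An ATOH8 peak did so at 0 of 5, against 12.7%. The neurogenin windows are shown because TCF3 peaks lie over or around them, and that of NEUROD2 because it is the proneural gene of these 4 without a TCF3 peak nearby. The windows are chr5:135535965-135536214 for NEUROG1, chr4:112516181-112516430 for NEUROG2, chr10:69573423-69573672 for NEUROG3 and chr17:39607921-39608170 for NEUROD2. All are on the minus strand, are written 5′ to 3′ and end at the base before the start, with E-boxes (CANNTG) in capitals.
NEUROG1: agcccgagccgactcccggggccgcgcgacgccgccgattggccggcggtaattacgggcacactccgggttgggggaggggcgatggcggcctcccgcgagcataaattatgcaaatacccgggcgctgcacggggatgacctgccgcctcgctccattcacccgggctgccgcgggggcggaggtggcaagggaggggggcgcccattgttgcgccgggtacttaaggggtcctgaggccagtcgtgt
NEUROG2: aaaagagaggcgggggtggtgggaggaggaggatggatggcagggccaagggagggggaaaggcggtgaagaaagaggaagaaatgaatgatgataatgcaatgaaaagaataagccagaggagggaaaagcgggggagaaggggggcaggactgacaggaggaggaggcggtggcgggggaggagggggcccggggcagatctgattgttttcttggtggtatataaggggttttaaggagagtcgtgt
NEUROG3: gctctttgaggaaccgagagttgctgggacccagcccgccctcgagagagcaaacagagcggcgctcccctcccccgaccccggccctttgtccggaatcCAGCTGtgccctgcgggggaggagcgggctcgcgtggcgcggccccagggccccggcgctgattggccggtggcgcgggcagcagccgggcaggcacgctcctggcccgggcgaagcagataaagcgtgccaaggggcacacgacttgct
NEUROD2: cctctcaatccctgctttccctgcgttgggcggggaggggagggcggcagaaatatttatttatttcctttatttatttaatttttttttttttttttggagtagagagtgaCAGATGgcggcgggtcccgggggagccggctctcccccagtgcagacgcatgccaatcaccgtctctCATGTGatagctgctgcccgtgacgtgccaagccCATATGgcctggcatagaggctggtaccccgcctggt

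The windows differed in how many E-boxes they held. CANNTG, which reads the same on both strands, was found 3 times before NEUROD2, once before NEUROG3 and not before NEUROG1, NEUROG2 or NEUROD1. At NEUROD2 the word CAGATG began 138 bases before the start, CATGTG began 71 bases before it and CATATG 37 bases before it. The NEUROG3 word was CAGCTG and began 150 bases before the start. Over all 15812 windows 57.8% held a CANNTG, 13.3% held CAGCTG, 9.84% held CAGATG or its other strand CATCTG, and 1.61% held CATATG; each of these words is one form of CANNTG. Among the 1764 windows under a TCF3 peak 49.3% held a CANNTG, against 58.8% of the other 14048. Single words differed in direction. CAGGTG (18.4 against 16.9%) and CACGTG (8.96 against 7.69%) were more frequent under a TCF3 peak. CAGCTG (12.3 against 13.5%), CAGATG (5.67 against 10.4%) and CATATG (1.08 against 1.68%) were less frequent there. These shares were not tested. A match is only a match of letters, and a window without one says nothing of binding.

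The windows of NEUROG1 and NEUROG3, both under a TCF3 peak, were rich in G and C, at 70.4 and 72.0%, above 74.9 and 79.5% of protein-coding promoters. NEUROG1 had 30 CG dinucleotides and NEUROG3 had 25, where the median window had 17. NEUROG2, whose peaks flank the window, had 56.0% G and C and 7 CG dinucleotides, and NEUROD2 had 54.0% and 12. NEUROD1 had 70.0% and 24, and no peak over its window.

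The proneural genes were set beside 15 other neural bHLH genes: ASCL3, ASCL4, ASCL5, ATOH1, ATOH7, NEUROD4, NEUROD6, OLIG1, OLIG2, OLIG3, BHLHE22, BHLHE23, PTF1A, NHLH1 and NHLH2. TCF3 peaks lay within 50 kb of 12 of the 15, against 53.7% of all protein-coding genes. The highest TCF3 scores were at BHLHE22 (253), ASCL4 (190) and OLIG1 (178). ATOH8 peaks lay within 50 kb of 6 of the 15, against 43.6%, with ASCL5 (181), ASCL4 (147) and OLIG3 (103) highest. The list is small, and its counts were not tested against these shares. OLIG1 and OLIG2 are neighbours and share peaks, so the 23 pairs of gene and TCF3 peak came from 18 peaks. The closest relatives of the NEUROD members, NEUROD4 and NEUROD6, had no peak of either factor, and neither did ASCL3. The 6 relatives with an ATOH8 peak, which rest on 5 ATOH8 peaks, also had a TCF3 peak, as did 1 of the 3 proneural genes with an ATOH8 peak. Over all protein-coding genes with an ATOH8 peak within 50 kb, 64.5% also had a TCF3 peak (5612 of 8706), and these small counts were not tested against that share.

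**Figure D5:**
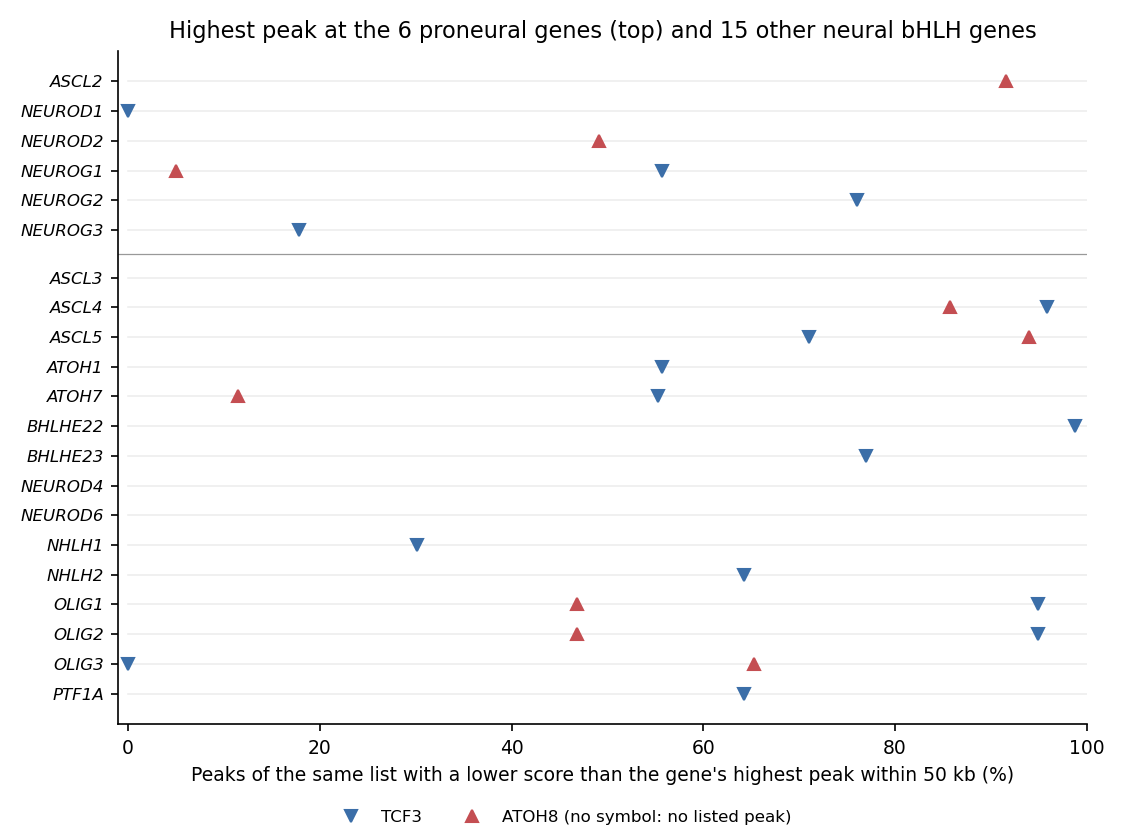
Highest peak within 50 kb at each neural bHLH gene. The x axis is the percentage of peaks of the same list with a lower score, blue triangles are TCF3 and red triangles ATOH8, the 6 proneural genes are above the line and 15 relatives below it, and a missing symbol means no listed peak. Among the 6, ASCL2 stands at 91.6% for ATOH8 and NEUROG2 at 76.0% for TCF3; ASCL3, NEUROD4 and NEUROD6 have no symbol.

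NEUROG1 had the most peaks of the 6, and its pattern was compared with that of each relative. Likeness was the sum, over both factors, of the difference in number of peaks within 50 kb and the difference in the highest peak's position in its list as a fraction, so that 0 is identical. The most alike were ATOH7 (1.07), a factor of retinal ganglion cells, PTF1A (1.14), of pancreas and cerebellum, and ASCL5 (2.04). PTF1A had no ATOH8 peak, and a missing peak entered the measure with position 0. ATOH7 had 1 peak of each factor, with scores 57 for ATOH8 and 69 for TCF3. The highest within 50 kb of NEUROG1 scored 54 for ATOH8 and 70 for TCF3. Those peaks were centred 42.7 and 42.9 kb from NEUROG1, the TCF3 one inside CXCL14. The TCF3 peak over NEUROG1 itself scored 52. The measure rests on 2 lists only.

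Partners and regulators of the proneural factors were counted in the same way. Of the E protein and ID genes, 6 of 7 had a TCF3 peak within 50 kb, with ID4 (202), TCF12 (154) and TCF3 itself (143) highest, and 4 of 7 had an ATOH8 peak, with ID1 (329), TCF3 (102) and TCF12 (86) highest. Of 12 Notch ligand, Notch receptor, HES and HEY genes, 9 had a TCF3 peak and 9 an ATOH8 peak. The TCF3 scores there were highest at HES6 (99), JAG2 (89) and NOTCH3 (70), and the ATOH8 scores at HES1 (277), DLL4 (183) and JAG1 (174). DLL1 and DLL3, ligand genes that proneural factors are known to switch on, both had an ATOH8 peak, with scores 86 and 105, and DLL1 also had TCF3 peaks, 66 highest. The lists are small and were chosen with results of these data known, so the counts are to be read against the 53.7 and 43.6% of all protein-coding genes as a description only.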

How the data were processed

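DU145 peak lists for the ATOH8 Flag and the TCF3 Myc immunoprecipitation were used, 1 library each. Input libraries were not analysed here. Cells were fixed in 1% formaldehyde for 10 min, per the labels' protocols. Each list gives position and a score per peak, as deposited by the authors. Coordinates are hg38, per the submitters' processing notes. Not given in the sources used here are the aligner, the caller and its threshold, how scores were made, whether inputs were used and whether coordinates count from 0 or 1. Lines holding no peak numbered 3 for ATOH8 and 5 for TCF3.

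Genes came from RefSeq GRCh38.p14, whose main chromosomes have the coordinates of hg38. Starts and strands came from its promoter table. Distances of peaks from genes were taken from peak midpoints unless an edge is named. Distances between peaks were gaps from edge to edge. Ranks were by score, with equal scores given the lowest and highest rank they span. Intervals (Wilson, 95%) cover the counting of genes or peaks only. No test was run, since each group had 1 library. The 6 genes and all lists were chosen with earlier results of these data known. Named genes were the 6, the neighbours that hold or lie nearest to their peaks, up to 3 genes per list and factor by highest score, and the 3 most like NEUROG1. ASCL3, NEUROD4, NEUROD6, OLIG2, DLL1, DLL3 and INSM1 were picked afterwards, as were the comparisons of width and gene coverage. Other windows, peak edges, stricter score limits, equal list lengths, other overlap rules and other gene sets were tried. One further gene chosen for the neural bHLH list is not reported here. Counting was tested on simulated peaks. The tools were pandas 2.3.3, numpy 2.4.6, matplotlib 3.10.9 and scipy 1.17.1 under Python 3.11.15.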

Additional observations from a re-analysis of the deposited data

How the results depend on the processing

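Both the number of proneural genes with an ATOH8 peak and the number of ATOH8 peaks fell from 3 to 1 with windows of 1, 5 and 10 kb. With the higher-ranked 50% of ATOH8 peaks (scores down to 84) both fell to 2, without the peak near NEUROG1 (54). The peak near NEUROD2 (84) was tied at the cut, so keeping it rested on listed order. For TCF3 the higher-ranked 50% of peaks (scores down to 61) left 2 of 4 genes and 2 of 6 peaks. Those were at NEUROG2 (94) and at CXCL14 near NEUROG1 (70). None of the peaks inside the neurogenin genes, nor that at NEUROD1, passed that limit. Equal list lengths (TCF3 scores down to 70) also left 2 genes. That cut fell among the peaks tied at 70, so keeping the CXCL14 peak rested on listed order. A window of 100 kb gave 11 TCF3 peaks. Sharing stayed at 0 with a reciprocal overlap of 50% and with midpoints within 200 bp. The share of protein-coding genes with an ATOH8 peak was 22.2, 25.1, 28.0 and 55.5% for windows of 1, 5, 10 and 100 kb, 28.9% over all annotated genes, 27.1% with the higher-ranked 50% of peaks and 42.7% over genes no longer than NEUROD1, a setting chosen after seeing the data. The TCF3 shares were 29.3, 32.9, 36.4 and 65.9%, then 45.3, 33.9 and 56.4%, and 30.4% with equal list lengths. For ATOH8 the other neural bHLH genes went from 6 to 3 within 5 kb and to 3 with the higher-ranked 50% of peaks. ATOH8 counts of the neuronal and endocrine genes went from 6 to 2 with the higher-ranked 50%. Those of the intestinal genes went from 2 to 1 under either setting. For TCF3 the Notch genes went from 9 to 4 with the higher-ranked 50%, and the intestinal genes from 4 to 7 within 100 kb. Fewer listed peaks or another window cause these shifts by construction. No paired analysis was possible because each group had 1 library. Depth was unknown.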

Other observations

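A list of 18 neuronal and endocrine genes held mostly genes taken to act downstream of proneural factors, but also REST and PAX6. TCF3 peaks lay within 50 kb of 14 of the 18, with SOX11 (253), ISL1 (240) and EBF3 (190) highest. ATOH8 peaks lay within 50 kb of 6 of the 18, with TUBB3 (271), PAX4 (85) and ELAVL3 (76) highest. Among all protein-coding genes the shares were 53.7% for TCF3 and 43.6% for ATOH8, and these lists, which are small, were not tested against them. INSM1, an endocrine and neuronal factor, had a peak of each, with scores 110 for TCF3 and 76 for ATOH8. Of 8 genes of the intestinal stem cell programme in which ASCL2 acts, 4 had a TCF3 peak, with AXIN2 (110), LGR5 (89) and SOX9 (89) highest, and 2 an ATOH8 peak, MSI1 (235) and SMOC2 (56). LGR5, the marker gene of those stem cells, had no ATOH8 peak within 50 kb, while ASCL2 itself had no TCF3 peak.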
